A study of Caenorhabditis elegans with 4 samples.

Results

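Chromosome III of Caenorhabditis elegans carried 697 of the 3811 peaks of histone H3 trimethylated at lysine 4 (H3K4me3) in replicate 1 and 634 of the 3487 peaks in replicate 2. These are all peaks listed on the chromosome, and no value of a peak decided whether it was included. The peaks come from ChIP-seq of embryos of strain N2, the wild type, collected at mixed stages, with an H3K4me3 antibody from Wako, in 2 replicates that share strain and stage. The labels pair each replicate with an input library of the same embryos, prepared without antibody, and give the replicates different versions of the extract protocol. The 2 input libraries were not analysed here. A mixed-stage embryo preparation pools all embryonic cell types, so a peak can come from some of the cells only. Nothing in the labels says that the replicates came from separate worm cultures, so the spread between them may be technical.

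H3K4me3 is placed on nucleosomes around the start sites of active genes and is a mark of active promoters. C. elegans autosomes have gene-rich centres flanked by arms with more repeats and more recombination, and their kinetochores form along the whole length of the chromosome rather than at a single centromere. LEM-2 is a protein of the inner nuclear membrane. In the same kind of embryos the study mapped the stretches of DNA bound by LEM-2, called LEM-2 subdomains, and the unbound gaps between them.

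The lists hold no read counts, so depth is unknown from the files; the study states more aligned reads for its replicate 1, but whether its read numbers and replicate numbers describe these lists is uncertain, since it lists its H3K4me3 experiments under another series. The score listed for a peak is its p-value as negative log10, multiplied by 10, with a ceiling near 3100 that 33.4% of all peaks reached in replicate 1 and 7.31% in replicate 2. Scores were therefore compared by rank or within a list only. The lists name no genome build. Coordinates are printed as listed, counted from 1, and were treated as build ce4, to which the study's methods align reads and in which its LEM-2 regions are given. Genes were not assigned to peaks, because no annotation in ce4 was used here. With 2 replicates a sign-flip test cannot give a two-sided p below 0.5. Values are therefore given for each replicate and as mean ± SD (n = 2), without a test over samples.

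The density of H3K4me3 peaks on chromosome III was 50.6 peaks per Mb in replicate 1 and 46.0 peaks per Mb in replicate 2, or 48.3 ± 3.23 (SD, n = 2). The other 5 chromosomes together had 36.0 peaks per Mb in replicate 1 and 33.0 in replicate 2. Chromosome III was higher by 14.6 peaks per Mb in replicate 1 and by 13.0 in replicate 2, a difference of 13.8 ± 1.10 (SD, n = 2) that is larger than its spread between the replicates. It carried 18.3% of the peaks of replicate 1 and 18.2% of those of replicate 2 on 13.7% of the genome's length.

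The order of the chromosomes by density was the same in both replicates, with III first and chromosome I next. Chromosome I had 49.2 peaks per Mb in replicate 1 and 45.4 in replicate 2. The difference between III and I was 1.34 peaks per Mb in replicate 1 and 0.549 in replicate 2, or 0.944 ± 0.558 (SD, n = 2). It had the same sign in both replicates but was the smallest of the differences between III and a single chromosome. Chromosome II followed at 41.5 and 38.6 peaks per Mb, X at 35.8 and 32.4, IV at 33.6 and 30.6, and V at 24.6 and 22.4, in replicates 1 and 2. Chromosome III exceeded each of these, as it did I, by more than the SD of the difference, by 8.23 ± 1.20 peaks per Mb over II and by 24.8 ± 1.68 over V (SD, n = 2).

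**Figure D1:**
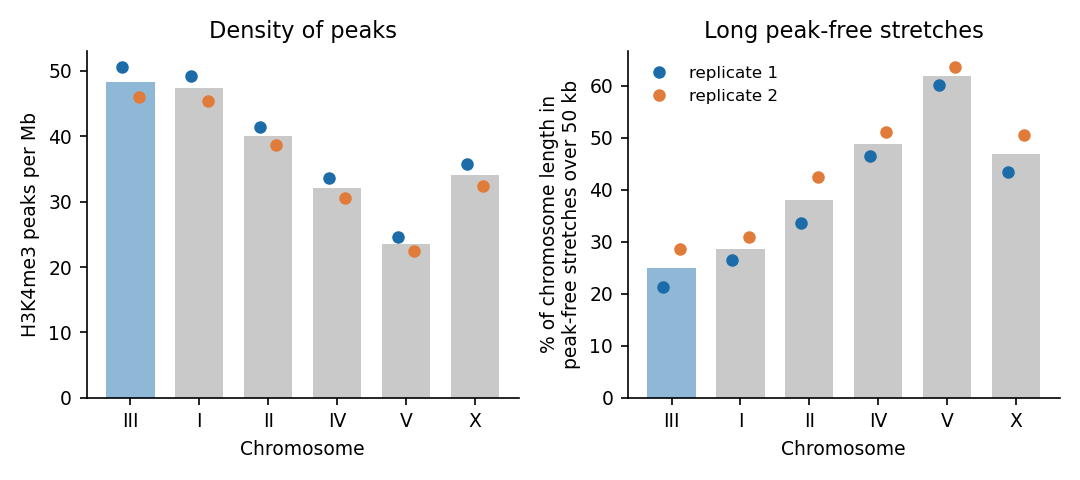
Peaks per Mb (left) and percent of chromosome length in peak-free stretches over 50 kb (right) for each chromosome; bars are means over 2 replicates and points are the replicates. Chromosome III, at 50.6 and 46.0 peaks per Mb, lies close to chromosome I at 49.2 and 45.4, and both lie above the other chromosomes.

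Set against gene number, chromosome III was again the highest, but the order of the others changed. It has 2642 protein-coding genes in the RefSeq annotation of assembly WBcel235, which was used for counts only. There were 26.4 peaks per 100 genes on III in replicate 1 and 24.0 in replicate 2. Chromosome I had 25.8 and 23.8 peaks per 100 genes, X 23.3 and 21.0, II 18.4 and 17.1, IV 17.9 and 16.3, and V 10.3 and 9.39. Chromosome X, which lay below II by length, was above II by gene number. The difference between III and I was 0.389 ± 0.285 peaks per 100 genes and that between III and X was 3.05 ± 0.106 (SD, n = 2).

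Widths of the peaks on chromosome III ranged from 1252 to 13715 bp in replicate 1, with a median of 2435 bp and quartiles of 1937 and 3409 bp. In replicate 2 they ranged from 1353 to 13472 bp, with a median of 2246 bp and quartiles of 1849.5 and 2987 bp. The median over both replicates was 2340.5 ± 134 bp (SD, n = 2), against 2280.25 ± 135 bp on the other chromosomes together. The medians on single chromosomes other than III ran from 2292 to 2442.5 bp in replicate 1 and from 2103.5 to 2231 bp in replicate 2. The median on III was the highest of the 6 in replicate 2 but lay below that on II in replicate 1, where III was lower than II by 7.5 bp. Peaks of 5 kb or more numbered 57 in replicate 1, or 8.18%, and 32 in replicate 2, or 5.05%. These shares were the fifth of the 6 chromosomes in both replicates, above IV at 7.99% and 2.99% and below X, the highest, at 11.5% and 7.67%. The width that 95% of peaks on III did not exceed was 5801 bp in replicate 1, the lowest of the 6 chromosomes, and 4999 bp in replicate 2, above that of IV only.

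Peaks covered 2.05 Mb of chromosome III in replicate 1, or 14.8%, and 1.67 Mb in replicate 2, or 12.1%. Coverage averaged 13.5% ± 1.92 on III and 9.70% ± 1.48 on the other chromosomes together (SD, n = 2). Chromosome I had almost the same coverage as III, with a difference between III and I of 0.0189 ± 0.0713 percentage points and opposite signs in the 2 replicates. The share of peaks with a score of 3100 or more was 38.9% on III in replicate 1, which is 271 peaks, and 9.62% in replicate 2, which is 61 peaks. Both shares were the highest of the 6 chromosomes in their list, with chromosome I next at 37.5% and 8.18%.

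The 3 widest peaks of replicate 1 that met a peak of replicate 2 lay in different surroundings. The widest ran from 12603793 to 12617507 and was 13715 bp wide. Its replicate 2 counterpart was 13472 bp wide and ran from 12603951 to 12617422, and both had a score of 3100. It lay inside a medium LEM-2 gap of the right arm, at 12597832 to 12618906, which was 73.4% covered by peaks in replicate 1 and 71.9% in replicate 2. The peak from 4272216 to 4285621, 13406 bp wide, lay in the left arm inside an extra large gap and had a counterpart of 11277 bp. The peak from 13060188 to 13073506, 13319 bp wide, spanned the whole of a small gap at 13061802 to 13069678 and was met by 2 peaks in replicate 2.

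Neighbouring peaks on chromosome III were separated by a median of 10237 bp in replicate 1 and 11508 bp in replicate 2, measured from the end of a peak to the start of the next. The middle part of the distribution ran from 3953 to 22712 bp in replicate 1 and from 4416 to 25007 bp in replicate 2 (quartiles). Chromosome I had medians of 10086 and 11572 bp, and the difference between III and I, 43.5 ± 152 bp (SD, n = 2), changed sign between the replicates. The median on III was shorter than on II, IV, V and X in both replicates, with a difference of -1575.5 ± 446 bp from II and -10560 ± 1392 bp from V (SD, n = 2). In replicate 1, 60 of 696 neighbours were less than 1 kb apart, or 8.62%, and in replicate 2 this held for 44 of 633, or 6.95%. Of these close neighbours, 37 of the 60 in replicate 1 and 29 of the 44 in replicate 2 lay in the centre of the chromosome. The centre also held 371 of all 696 distances in replicate 1 and 340 of all 633 in replicate 2. Of the distances in the centre, 9.97% and 8.53% were under 1 kb in replicates 1 and 2. The left arm had 8.02% and 4.76%, and the right arm 6.13% and 5.48%.

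**Figure D2:**
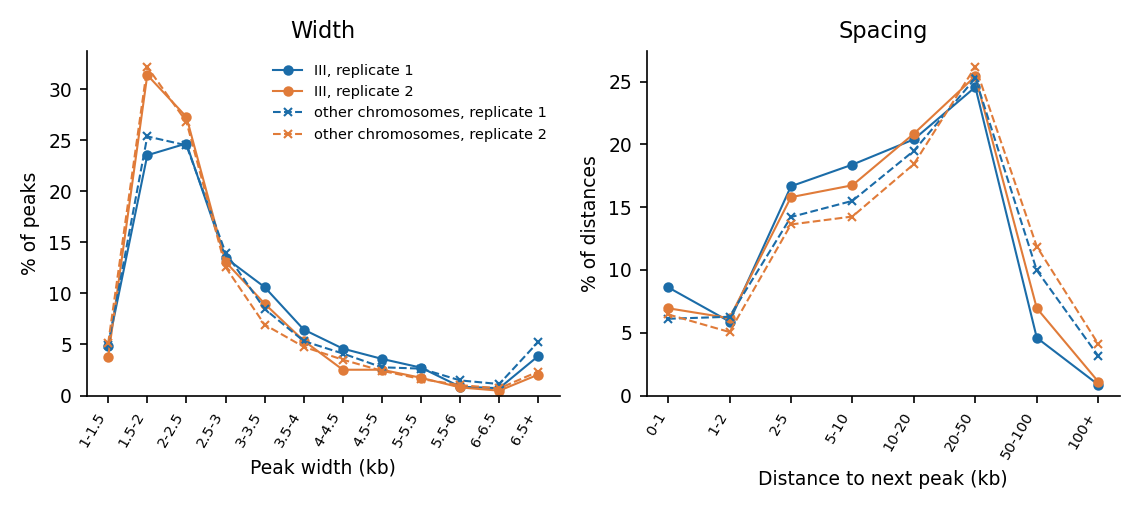
Percent of peaks by width in kb (left) and percent of end-to-start distances between neighbouring peaks by distance in kb (right), with solid lines for chromosome III and dashed lines for the other chromosomes and a colour for each replicate. Width bins are 0.5 kb wide up to the open last bin, and distance bins are unequal. Peaks of 6.5 kb or more were 3.87% and 2.05% of peaks on III against 5.27% and 2.35% on the other chromosomes, in replicates 1 and 2. The difference was small in replicate 2, where these were 13 of 634 peaks on III and 67 of 2853 on the others. Distances over 50 kb were 5.46% and 8.06% of distances on III. Chromosome I, pooled here with the others, had 7.02% and 8.77%.

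Long stretches without a peak were uncommon on chromosome III. Only 38 of the distances in replicate 1 and 51 in replicate 2 exceeded 50 kb. These stretches held 21.3% of the chromosome's length in replicate 1 and 28.7% in replicate 2, the lowest value of the 6 chromosomes in each replicate. On chromosome I they held 26.4% and 30.8%, and on V 60.1% and 63.6%. The difference between III and I was -3.64 ± 2.10 percentage points (SD, n = 2). On III, 17 of the 38 long stretches of replicate 1 lay in the left arm, 15 in the right arm and 6 in the centre, and in replicate 2 the numbers were 21, 19 and 11.

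The longest stretch without a peak in either replicate ran from 1226788 to 1416730 and was 189.9 kb long. The next ran from 1963154 to 2100517 (137.4 kb) and from 2817359 to 2946483 (129.1 kb). All 3 lay in the left arm, with 99.4% to 100% of their bases in LEM-2 subdomains. The longest such stretch on other chromosomes was 169.8 kb on II, 217.6 kb on I, 270.9 kb on X, 518.7 kb on IV and 547.4 kb on V. At the ends of chromosome III, the first peak of replicate 1 ran from 24758 to 26232 and the last from 13769454 to 13772645, on a chromosome of 13783681 bp. Both had a counterpart in replicate 2, from 24666 to 26195 and from 13769678 to 13772470.

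The study's limits of the LEM-2-bound arms place the left arm at 1 to 4310000, the centre at 4310001 to 9865000 and the right arm at 9865001 to 13783681. These limits were drawn by eye from LEM-2 signal, so the division into arms and centre and the division into subdomains and gaps are not independent of each other. The centre held 371 of the 697 peaks in replicate 1, or 53.2%, and 340 of the 634 in replicate 2, or 53.6%, on 40.3% of the chromosome's length. Density was 66.8 peaks per Mb in the centre and 39.6 in the arms in replicate 1. In replicate 2 it was 61.2 peaks per Mb in the centre and 35.7 in the arms. The centre was denser than the arms 1.69-fold in replicate 1 and 1.71-fold in replicate 2, or 1.70 ± 0.0193 (SD, n = 2).

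The same ratio averaged 1.91 on chromosome V, 1.69 on II, 1.61 on IV, 1.51 on I and 1.18 on X. Its value on III therefore stood within the range of the autosomes and differed from that on II by less than the spread between replicates. The arms of III were close to each other. The left arm had 37.6 peaks per Mb in replicate 1 and 34.1 in replicate 2, and the right arm had 41.9 and 37.5. The density of the left arm over that of the right was 0.904 ± 0.00784 (SD, n = 2).

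Coverage followed density. In the centre of III, 20.2% of bases lay in peaks in replicate 1 and 16.1% in replicate 2. The left arm had 10.5% and 8.79%, and the right arm 12.0% and 10.2%. The median distance between peaks was 7965.5 bp in the centre in replicate 1 and 9099 bp in replicate 2, against 14953 and 16365 bp in the left arm and 16128 and 19147 bp in the right arm. The peaks themselves did not differ in width with a steady direction. The median width of the centre minus that of the arms was 89 bp in replicate 1 and -49.5 bp in replicate 2.

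In 20 bins of 5% of the length, 0.689 Mb each, the density along chromosome III formed a plateau in the middle with a dip inside it. The bins from 25% to 75% of the length had 34 to 55 peaks each in replicate 1 and 34 to 51 in replicate 2, and the bins outside had 17 to 34 and 14 to 28. The richest bin lay at 40% to 45% of the length, with 55 peaks in replicate 1 and 51 in replicate 2. The next bin, at 45% to 50%, held only 34 peaks in each replicate and contained no subdomain. The poorest bin, at 10% to 15%, held 17 peaks in replicate 1 and 14 in replicate 2, with 98.0% of its bases in subdomains. The bin counts of the 2 replicates had a Spearman correlation of 0.936, and with the percent of bases in subdomains the correlation was -0.822 in replicate 1 and -0.812 in replicate 2. These are descriptions over 20 neighbouring bins of a single chromosome.

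**Figure D3:**
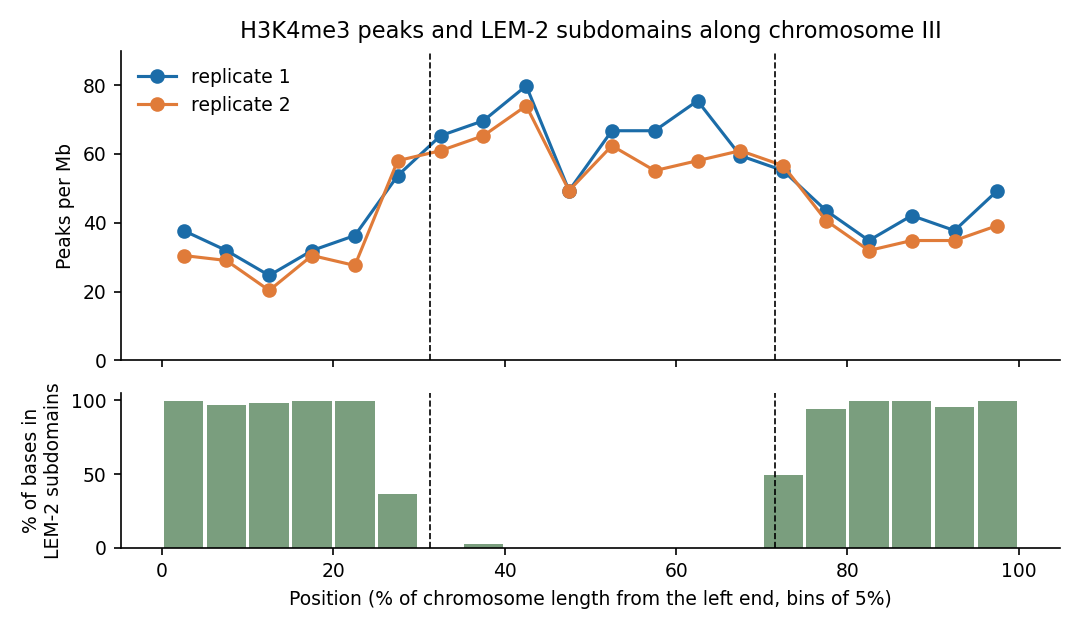
Peaks per Mb in bins of 5% of the chromosome's length for both replicates (top) and percent of each bin's bases in LEM-2 subdomains (bottom), along chromosome III from the left end; dashed lines mark the limits of the arms. Density peaks at 79.8 and 74.0 peaks per Mb in the bin at 40% to 45%, and bins outside the plateau that are nearly filled by subdomains have 20.3 to 49.3 peaks per Mb.

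At a finer scale, the densest of the 137 full windows of 100 kb ran from 5900001 to 6000000, with 13 peak midpoints in replicate 1 and 10 in replicate 2. The median window held 5 peaks in replicate 1 and 4 in replicate 2. Only 2 windows of III, or 1.46%, had no peak midpoint in either replicate, compared with 0.667% of windows on I, 1.32% on II, 2.82% on X, 9.20% on IV and 16.7% on V.

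The study's map divides chromosome III into 36 LEM-2 subdomains, with 53.5% of the assigned bases, and 35 gaps. The study sorts gaps by length into small, medium, large and extra large, and III has 24 small gaps of up to 9.47 kb, 8 medium gaps of 10.1 to 31.1 kb, 1 large gap of 232.8 kb and 2 extra large gaps of 1394 and 4557 kb. The extra large gaps, at 3955602 to 5349150 and 5366552 to 9923650, make up nearly all of the centre and 43.2% of the assigned bases. Other gaps were therefore few on III, with 3.30% of its assigned bases against 14.5% on the other chromosomes together. Each peak was assigned to the region that holds its midpoint.

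Most peaks of chromosome III lay in gaps, and the extra large gaps held most of these. Extra large gaps held 394 peaks in replicate 1 and 363 in replicate 2, the other gaps 38 and 45, and subdomains 265 and 226. The share of peaks in subdomains was 38.0% in replicate 1 (exact Clopper-Pearson 95% interval 34.4 to 41.7%) and 35.6% in replicate 2 (31.9 to 39.5%). The intervals cover counting error only. On the other chromosomes together it was 28.3% in replicate 1 and 28.4% in replicate 2. Among single chromosomes, I had 38.0% and 39.1%, IV 34.5% and 33.6%, II 31.6% and 32.1%, V 28.5% and 27.3%, and X 7.57% and 8.03%. These shares stand beside unequal shares of bases in subdomains, which were 53.5% on III, 49.0% on the other chromosomes together, 54.8% on I, 60.3% on IV, 49.0% on II, 61.7% on V and 17.7% on X. On each chromosome the share of peaks in subdomains was below the share of bases.

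The density in gaps other than extra large ones was 83.6 peaks per Mb in replicate 1 and 99.0 in replicate 2. In extra large gaps it was 66.2 and 61.0, and in subdomains 35.9 and 30.6 peaks per Mb. The gaps without the extra large ones were thus denser than subdomains 2.33-fold in replicate 1 and 3.23-fold in replicate 2, or 2.78 ± 0.639 (SD, n = 2). The other chromosomes together had ratios of 2.89 and 2.96, which lie between the 2 values of III. In bases covered rather than midpoints, the ratio on III was 3.09 in replicate 1 and 3.49 in replicate 2. The density of the extra large gaps exceeded that of subdomains 1.84-fold in replicate 1 and 1.99-fold in replicate 2.

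Subdomains on III were richer in peaks than those of the other chromosomes taken as a whole. Their density of 35.9 and 30.6 peaks per Mb compares with 20.8 and 19.2 in the subdomains of the other chromosomes together. Chromosome I again lay close, at 34.1 and 32.4 peaks per Mb, higher than III in replicate 2 and lower in replicate 1. Of the 36 subdomains of III, a peak touched 32 in replicate 1, or 88.9%, and 31 in replicate 2, or 86.1%. On the other chromosomes peaks touched 222 and 206 of 324 subdomains, or 68.5% and 63.6%. Among these, chromosome I lay nearer to III, with 38 of 46 subdomains touched in each replicate, or 82.6%. The median length of a subdomain was 65797 bp on III and 56107 bp on the other chromosomes.

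**Figure D4:**
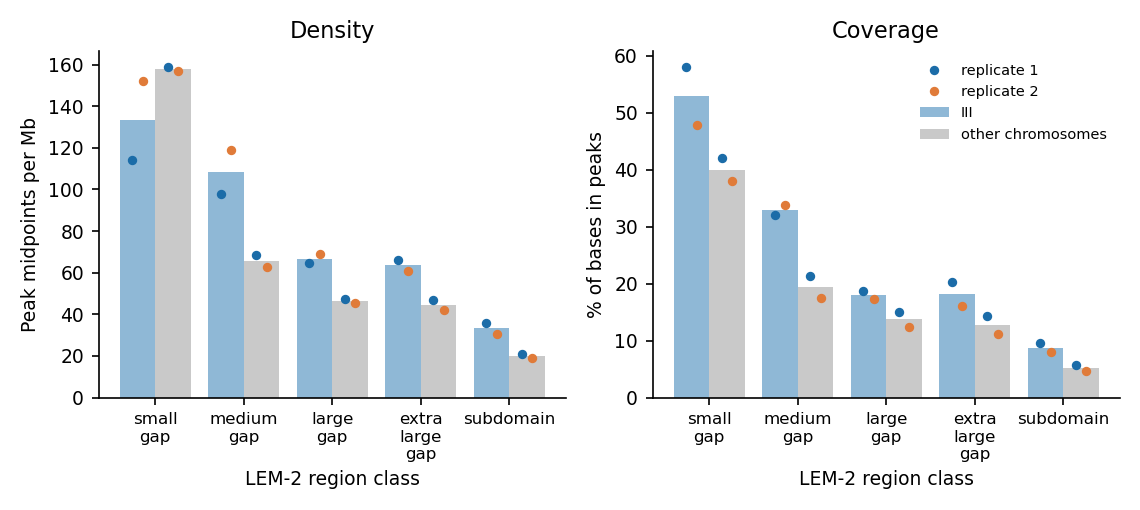
Peak midpoints per Mb (left) and percent of bases in peaks (right) in each class of LEM-2 region, for chromosome III and for the other chromosomes together; bars are means over 2 replicates and points are the replicates. Subdomains have the lowest values of the 5 classes on III in both panels, and small gaps have the highest.

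The 24 small gaps of III, from 0.032 to 9.47 kb long, had the highest share of bases in peaks, 58.0% in replicate 1 and 47.9% in replicate 2. Medium gaps had 32.0% and 33.9%, the large gap 18.7% and 17.2%, extra large gaps 20.2% and 16.1%, and subdomains 9.60% and 7.96%. Small gaps exceeded medium gaps in density 1.17-fold in replicate 1 and 1.28-fold in replicate 2, from only 9 and 12 midpoints in small gaps and 14 and 17 in medium gaps. On the other chromosomes the ratios were 2.32 and 2.50. Peaks with a midpoint in a small gap of III had a median width of 4899 bp in replicate 1 and 3973.5 bp in replicate 2, compared with 2335 and 2247.5 bp in subdomains. Many of these gaps are shorter than a peak, so a gap can be covered by a peak whose midpoint lies in the neighbouring subdomain.

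Single regions varied. Peaks touched 18 of the 24 small gaps in both replicates, 5 in neither and 1 in replicate 1 only. That gap, at 1218099 to 1224900, was 35.0% covered in replicate 1. Peaks covered 8 small gaps completely in replicate 1 and 7 in replicate 2, among them those at 10739840 to 10741938, 10706346 to 10708092 and 12369052 to 12369802. The small gaps over 2 kb without any peak were at 3604101 to 3608850 and 11468957 to 11471000. Of the 8 medium gaps, 7 held a midpoint in both replicates, and the gap at 1163102 to 1178500 had no peak in either. The medium gap at 9944924 to 9976050 held 3 peaks in replicate 1 and 6 in replicate 2, with 18.8% and 44.6% of its bases covered, although replicate 2 had fewer peaks on the chromosome as a whole. The large gap, at 3695790 to 3928573, held 15 peaks in replicate 1 and 16 in replicate 2.

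The gaps other than extra large ones were unevenly filled in the arms. Those of the left arm held 20 peaks in each replicate, or 66.9 peaks per Mb. Those of the right arm held 18 in replicate 1, at 116 peaks per Mb, and 25 in replicate 2, at 160. The large gap makes up most of the gap bases of the left arm, so the arms differ in the classes of gap they hold. Subdomains had 32.8 and 29.0 peaks per Mb in the left arm and 38.9 and 32.4 in the right arm. The single subdomain in the centre, at 5349151 to 5366551, separates the extra large gaps. It held 1 midpoint in replicate 1 and none in replicate 2, and its bases were covered to 5.55% and 5.21%.

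The subdomain with most peaks was also the longest, at 2100251 to 3390241, with 45 peaks in replicate 1 and 38 in replicate 2. The subdomain at 351139 to 1163101 followed with 33 and 28 peaks, and that at 10818451 to 11468956 with 25 and 22. The longest subdomains without a peak in either replicate were at 1623451 to 1679251 (55.8 kb), 3928574 to 3955601 (27.0 kb) and 9923651 to 9944923 (21.3 kb). The last of these and the one before it each adjoin an extra large gap.

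Peaks within subdomains were mostly far from an edge, as were most subdomain bases. Of the subdomain peaks, 90.6% in replicate 1 and 91.2% in replicate 2 had their midpoint 5 kb or more from the nearest edge with a gap, where 95.3% of subdomain bases lie. Density was 34.1 peaks per Mb there in replicate 1 and 29.3 in replicate 2, against 71.4 and 57.1 within 5 kb of an edge. Among replicate 1 peaks lying whole at that depth and met by replicate 2, the highest score was that of the peak from 866768 to 871950, with scores of 3198.67 in replicate 1 and 1787.82 in replicate 2. The next ran from 3310346 to 3313435, with scores of 3131.58 and 785.87. The peak from 12135883 to 12144407, 8525 bp wide with a counterpart of 8126 bp, had a score of 3100 in replicate 1. Of the 199 such peaks 93 had this score, and it was taken as the widest of them, so these 3 are examples from the ceiling and not a ranking. Scores of the 2 lists are not on a common scale.

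Averaged over windows of up to 5 kb, coverage by peaks was higher on the gap side than on the subdomain side of the borders between them. At the 35 left edges of subdomains on III, the 5 kb on the gap side, or the whole gap where shorter, had 52.0% of bases in peaks in replicate 1 and 48.5% in replicate 2. The 5 kb on the subdomain side had 24.1% and 24.2%. Only 15 of the 35 gaps reached 5 kb, so most gap windows were shorter than the subdomain windows and closer to the edge. The gap side was higher by 27.9 percentage points in replicate 1 (SE 6.94 over boundaries) and by 24.3 in replicate 2 (SE 7.03), or 26.1 ± 2.57 (SD, n = 2 replicates). In windows of 2 kb the mean difference was only 11.3 percentage points. With the 5 kb windows, the gap side was higher at 20 boundaries, lower at 7 and equal at 8 in replicate 1. In replicate 2 the numbers were 24, 4 and 7. The boundaries counted as equal had no peak on either side. The right edges gave differences of 29.5 and 25.9 percentage points. Where a gap was shorter than 5 kb, both edges used the same gap bases, so the 2 sets of edges are not independent. At the 319 left edges of the other chromosomes, where 224 gaps reached 5 kb, the difference was 19.9 in replicate 1 and 18.6 in replicate 2. On chromosome I it was 29.9 and 24.9, so III did not stand apart from I.

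Both sides of the left edges were more covered on III than on the other chromosomes together, at 50.2% against 30.6% on the gap side and 24.2% against 11.3% on the subdomain side as means over replicates. The change at the left edge itself was smaller than that over the next 5 kb and differed in sign between the replicates. The study joined windows far longer than 500 bp into subdomains by their average signal. A called edge can therefore lie some way into unbound DNA, which limits these steps, the 2 kb windows and the counts within 5 kb of an edge. How far this shaped the values was not tested. The last 500 bp of the gap, in the 31 gaps that are this long, had 54.6% of bases in peaks in replicate 1 and 47.0% in replicate 2. The first 500 bp of the subdomain, at all 35 edges, had 49.7% and 49.4%, and the stretch from 4.5 to 5 kb inside had 8.57% and 8.30%. At the right edges the 500 bp on the subdomain side was the more covered in both replicates. It had 53.6% and 48.6% of bases in peaks, against 48.9% and 41.9% in the 500 bp on the gap side.

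**Figure D5:**
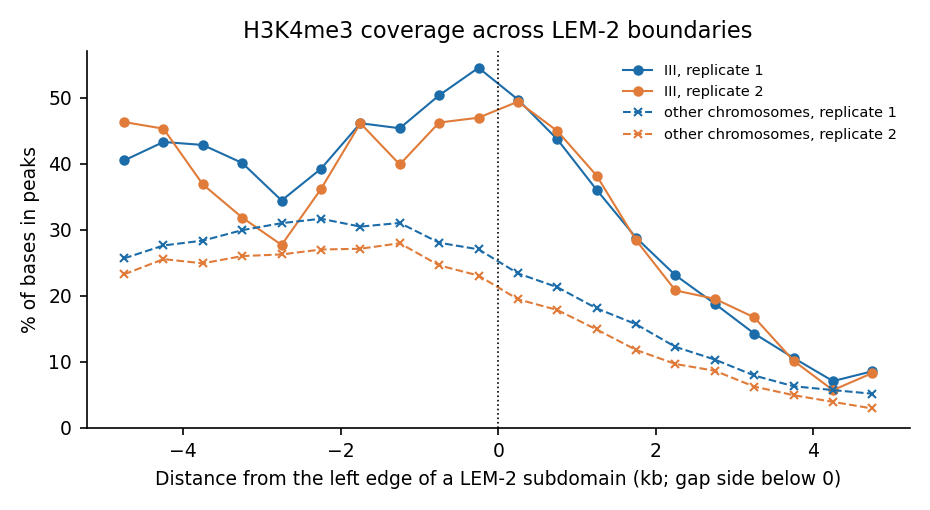
Percent of bases in H3K4me3 peaks in steps of 500 bp from the left edges of LEM-2 subdomains. Solid lines are chromosome III and dashed lines the other chromosomes. The gap side is at negative and the subdomain side at positive distances in kb. The subdomain side rests on 35 edges on III and 319 on the other chromosomes. Shorter gaps end before 5 kb, so edges on the gap side fall from 31 to 15 on III. On the other chromosomes they fall from 304 to 224. On III, coverage stays near 49% in the first 500 bp of the subdomain and is under 9% in the step from 4.5 to 5 kb.

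The replicates listed largely the same peaks on chromosome III. Of the 697 peaks of replicate 1, 605 shared at least 1 bp with a peak of replicate 2, which is 86.8% (84.1 to 89.2%, exact Clopper-Pearson 95% interval). Of the 634 peaks of replicate 2, 616 overlapped a peak of replicate 1, or 97.2% (95.6 to 98.3%). The other chromosomes ran from 85.4% to 86.7% and from 96.3% to 98.0% in the same directions. Of the bases in peaks of replicate 1, 79.0% also lay in peaks of replicate 2, and 96.7% the other way round.

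On III, 594 peaks formed pairs with a single partner in each list. Their midpoints lay a median of 55 bp apart, and 95% of the pairs were within 564 bp. The replicate 1 peak was the wider in 526 pairs, or 88.6%, by a median of 188.5 bp over all pairs. Spearman correlations over the pairs were 0.899 for score and 0.881 for width. A further 11 peaks of replicate 1 met more than a single peak of replicate 2, whereas no peak of replicate 2 met more than a single peak of replicate 1.

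The 92 peaks found in replicate 1 only were narrower and lower than the shared peaks, with a median width of 1672.5 bp against 2533 bp and a median score of 116.29 against 2437.63. Of replicate 1 peaks, 68.7% were overlapped among those under 2 kb and 93.4% among those of 2 to 5 kb. Among wider ones the share was 98.2%, where 56 of 57 were met. Replicate 2 peaks of the same widths did not show this rise, with 96.9%, 97.1% and 100% overlapped. By position, the share of replicate 1 peaks overlapped was 88.4% in gaps, 84.2% in subdomains and 87.6% in the centre. It was 86.4% in the left arm and 85.4% in the right arm, with overlapping 95% intervals throughout. The 3 highest-scoring peaks found in replicate 1 only ran from 11906663 to 11910089 in a subdomain, and from 8287119 to 8294476 and 7531319 to 7535325 in the longer extra large gap. Their scores were 697.84, 645.26 and 596.25. Only 18 peaks were found in replicate 2 alone, with a median score of 99.3. The highest 3 of these, chosen after their values were seen, included that from 9967933 to 9971856 in the medium gap with 3 and 6 peaks.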

How the data were processed

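H3K4me3 ChIP-seq peaks of N2 mixed-stage embryos were taken from the deposited lists, 1 for each of 2 replicates. The authors ran MACS on each replicate separately (p-value below 1e-05) and deposited a score for each peak, 10 times the negative log10 p-value. The submitters' processing notes name BWA, whereas the study's methods describe MAQ and ce4; the versions and the build of the lists are not given in the sources used here. The number and width of called peaks depend on read depth, so densities were compared within each list. Starts were converted to count from 1. LEM-2 subdomains, gaps, arm limits and chromosome lengths came from the study's supplementary tables in ce4. Gap ends that fell on the start of the following subdomain were moved 1 base to the left. Regions were assigned by peak midpoint, and 2 peaks overlapped if they shared at least 1 bp. Named regions and peaks are the medium and longer gaps, the subdomain in the centre, the extremes of coverage, peak number, length, width or score within a class (at most 3 each, small gaps without a peak only above 2 kb), the end peaks, and the richest and poorest bins. The densest 100 kb window, the bin next to the richest and the small gap met in replicate 1 only were chosen after their values were seen. The chromosome and the lists were chosen with earlier results of these data known. Medians, ratios and exact intervals at the 95% level were computed in Python 3.11.15 (scipy 1.17.1, numpy 2.4.6, pandas 2.3.3, with matplotlib 3.10.9 for plots), and the functions were tested on simulated peaks. Alternatives were each replicate alone, shared peaks, merged peaks, the higher-scoring part of each list, bases in place of midpoints, other arm limits, other windows and reciprocal overlap.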

Additional observations from a re-analysis of the deposited data

How the results depend on the processing

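Of 26 alternative values for 10 results on chromosome III, 13 differed from the mean of the 2 replicates by less than 1 SD between replicates. The other 13 differed by more. A direction was defined only for the difference from other chromosomes, the centre-to-arm and gap-to-subdomain ratios and the difference at boundaries. No alternative for these results changed direction. With only peaks shared by both replicates, density was 44.3 peaks per Mb, median spacing 11971.5 bp and the centre-to-arm ratio 1.73. With peaks less than 1 kb apart merged, these were 44.5 peaks per Mb, 12086.8 bp and 1.64. The centre-to-arm ratio was also 1.64 for the higher-scoring part of each list, 1.75 in bases, 1.60 with limits moved 250 kb into the centre and 1.74 with limits moved into the arms. The share in subdomains was 34.9% in bases. The difference at boundaries was 11.3 percentage points in 2 kb windows and 32.9 in 10 kb windows. Single replicates, which by construction lie within 1 SD of their mean, ranged from 46.0 to 50.6 peaks per Mb, 13.0 to 14.6 for the difference from other chromosomes, 2246 to 2435 bp in width, 12.1% to 14.8% in coverage, 10237 to 11508 bp in spacing, 1.69 to 1.71 for centre over arms, 35.6% to 38.0% in subdomains, 2.33 to 3.23 for gaps over subdomains, 24.3 to 27.9 percentage points at boundaries and 86.8% to 97.2% in overlap. The cause of these shifts was not tested. The number of peaks rests on depth, which the lists do not give, and small and medium gaps of III hold few peaks. Differences between chromosomes were taken within each replicate. No comparison between groups of samples was possible because the deposited lists hold a single group, with the inputs not analysed here.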
